A study of Mus musculus with 8 samples.

Results

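The CCL17-positive dendritic cells of mouse lymph nodes (LN) were represented by 4 of the 8 Illumina BeadChip arrays of the series, chosen by their titles. Their own expression levels were described here: which genes were detected, in what order of intensity, and how far the 4 arrays differed. A gene was counted as detected where a probe had a detection p-value under 0.01 on all 4 arrays, and its level is the mean normalized log2 intensity of its brightest such probe. By this rule 13014 of 45281 probes (28.7%) were detected, and they covered 7562 of the 19057 genes with a named probe (39.7%). A further 453 genes were detected on 3 arrays, 438 on 2 and 652 on 1, and 9952 had no probe detected on any LN array.

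All cells came from CCL17E/+ mice on a C57BL/6 background, aged 2 to 5 months. These mice are heterozygous for an EGFP reporter placed in the Ccl17 gene, so a fluorescent cell is one in which that locus is active. Both groups received 100 µg of LPS, the bacterial endotoxin that activates Toll-like receptor 4, and were taken 15 h later. The LN group held EGFP-positive cells sorted from mesenteric and peripheral nodes as lacking NK1.1 and CD8alpha and carrying CD11c and CD11b. The splenic group, with 4 arrays of its own, held EGFP-negative cells that passed the same surface gate. Organ and CCL17 status differed together between the groups, and no group without LPS or with a wild-type Ccl17 locus was analysed here. How many mice went into a sort, and whether they were pooled, was not given in the sources used here, so p-values measured the spread between these samples.

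Dendritic cells take up antigen in tissues, mature on contact with microbial products and migrate through lymph vessels to the nodes, where they present peptides to T cells. CCL17 and its neighbour CCL22 are chemokines that both bind the receptor CCR4 on T cells. Mature dendritic cells are known for high CCR7, the receptor that guides them to the nodes, for the actin bundler fascin, and for surface MHC and costimulatory molecules.

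Mean bead intensity was 521, 482, 417 and 334 on LN replicates 1 to 4, and between 14429 and 14985 probes were detected per array. Pearson correlation between LN arrays over all probes was 0.982 to 0.990. Among the spleen arrays, replicate 4 correlated with the other three at 0.944 to 0.963, below the 0.982 to 0.992 among the rest. Replicates 1 and 2 of both groups lay on the first BeadChip and replicates 3 and 4 on the second. Arrays have no read depth, so their number limits the precision.

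All 6 genes that mark these cells were detected on each LN array. Ccl17 had log2 intensities of 12.69, 12.04, 12.54 and 12.77 on LN replicates 1 to 4, against 5.59, 6.61, 6.65 and 6.12 on spleen replicates 1 to 4. Every LN array lay far above every spleen array. Ccl22 had 10.05, 8.73, 9.04 and 9.30 on the LN arrays, against 4.77, 4.95, 4.50 and 5.00 on the spleen arrays, none of which was above detection. The LN arrays were again separate, with replicate 1 the highest. Itgae, which encodes the CD103 integrin chain of mucosal dendritic cells, had 11.26, 11.27, 11.17 and 11.24 on the LN arrays, the tightest of the markers. It had 7.13, 7.13, 6.96 and 5.47 on the spleen arrays. The closeness belongs to its brightest probe: 5 of its 6 probes were detected on all 4 LN arrays, with means up to 4.27 log2 units apart. Each of the others spread more widely, the widest with 8.10, 7.90, 8.76 and 8.67. Aldh1a2, the enzyme that makes retinoic acid, had 11.36, 10.22, 11.34 and 11.66 on the LN arrays, against 6.64, 6.89, 7.15 and 8.58 on the spleen arrays. Replicate 2 was the lowest LN array and lay more than 1 log2 unit under the others. Apol7c, an apolipoprotein L family gene, had 14.25, 13.98, 13.81 and 13.39 on the LN arrays, against 10.15, 10.94, 11.42 and 10.05 on the spleen arrays. Fscn1, which encodes fascin, had 14.76, 13.83, 14.17 and 13.97 on the LN arrays, against 13.22, 13.21, 13.60 and 12.66 on the spleen arrays. Fscn1 was bright in both groups, and its groups lay close to each other without overlap.

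In a limma model over all 8 arrays, 1285 of 8252 genes differed at a Benjamini-Hochberg adjusted p under 0.05 (15.6%), and 659 were higher in LN cells (7.99%). All 6 markers were called higher, which is no independent evidence. The sort on EGFP had selected for an active Ccl17 locus, and the markers were chosen with earlier results of these data known. Their p-values describe the markers and do not test them. Ccl17 was 6.27 ± 0.28 log2 units higher (LN minus spleen ± SE, adjusted p = 1.13e-06). Itgae was 4.56 ± 0.35 higher (adjusted p = 2.22e-05), with 3 of 4 spleen arrays above detection. Aldh1a2 was 3.83 ± 0.44 higher (adjusted p = 0.000263) and Apol7c was 3.22 ± 0.31 higher (adjusted p = 9.57e-05). Ccl22 was at least 13.3-fold higher (adjusted p = 1.32e-05). For that bound each spleen array was given its dimmest detected signal, or the probe's own signal where that was higher. The bound depends on the background step: with the authors' values, normexp or no background correction, LN minus spleen was 3.06, 3.12 and 3.10 log2 units for Ccl22, differences smaller than that fold. Under the same settings it was 5.46, 5.49 and 5.48 for Ccl17 and 3.91, 3.94 and 3.93 for Itgae. Fscn1 was 1.01 ± 0.24 higher (adjusted p = 0.0189), a call that was lost without LN replicate 1 (0.81, adjusted p = 0.0504) or LN replicate 3 (1.01, adjusted p = 0.0514). The groups did not overlap for any of the 6 markers, as for 12.2% of all genes tested with LN higher. The count of called genes was 2046 without spleen replicate 4, and 378 on the second BeadChip alone. Some marker lists of other cells moved with the groups, by linear intensity summed over every listed gene with a probe, detected or not. For 10 erythroid genes the sums were 335 to 600 on the LN arrays against 5259 to 40173 on the spleen arrays. They were 6028 to 7568 against 16360 to 36181 for 14 plasmacytoid genes and 2471 to 2868 against 4387 to 5823 for 16 macrophage genes. Sums were higher on LN arrays for monocyte genes, at 1503 to 2205 against 632 to 1296. The same held for Langerhans and epithelial genes, at 1525 to 2793 against 549 to 1005. Few genes carried these 2 sums. Lad1 (10.82), which is also in the maturation list, was the sole Langerhans and epithelial gene of 10 detected on all 4 LN arrays. Lyz2 (10.27) was the brightest of 3 monocyte genes of 13 so detected. For the T cell, B cell, NK cell, neutrophil, platelet, and stromal and endothelial lists, the sums of the groups overlapped. T cell sums were 1005 to 1248 on the LN arrays against 695 to 1079 on the spleen arrays. NK cell sums were 4394 to 6675 against 5538 to 7900. The part of the marker lists in the calls was not tested. In sorted bulk samples, fewer cells of a type and less RNA per cell cannot be told apart.

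**Figure D1:**
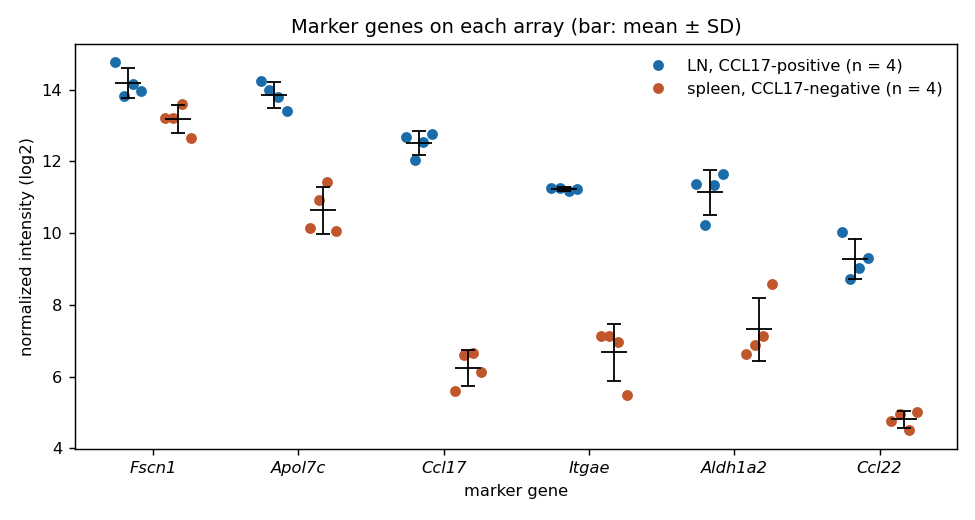
Normalized log2 intensity (vertical axis) of the 6 marker genes on each array, with LN CCL17-positive cells in blue on the left and splenic CCL17-negative cells in orange on the right of each gene; bars give the mean ± SD of 4 arrays. The groups are separate for every gene, by the least for Fscn1, and the 4 LN values of the brightest Itgae probe lie between 11.17 and 11.27.

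The chemokine genes Ccl17 and Ccl22 are neighbours on mouse chromosome 8, and Apol7c lies on chromosome 15. Ccl17 and Ccl22 are shown because they share a receptor and a chromosomal neighbourhood, and Apol7c because it was the other marker whose window held the pattern marked below. Each window holds the 250 bases before the RefSeq start site on GRCm38.p6, 5′ to 3′ on the gene's strand, at chr8:94810203-94810452 (plus strand) for Ccl17, chr8:94745434-94745683 (plus strand) for Ccl22 and chr15:77533316-77533565 (minus strand) for Apol7c. Capitals mark the pattern TTC, then 4 bases of any kind, then GAA, which is bound by STAT6, the factor that interleukin-4 activates.
Ccl17: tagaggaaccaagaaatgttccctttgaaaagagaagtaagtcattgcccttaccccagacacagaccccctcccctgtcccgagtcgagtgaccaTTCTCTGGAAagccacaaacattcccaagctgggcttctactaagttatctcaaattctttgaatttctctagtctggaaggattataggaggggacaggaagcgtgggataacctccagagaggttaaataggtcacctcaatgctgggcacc
Ccl22: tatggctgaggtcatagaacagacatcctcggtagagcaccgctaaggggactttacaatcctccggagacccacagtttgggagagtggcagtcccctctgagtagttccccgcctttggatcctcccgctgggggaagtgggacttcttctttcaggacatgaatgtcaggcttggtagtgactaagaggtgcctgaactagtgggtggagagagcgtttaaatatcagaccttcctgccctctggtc
Apol7c: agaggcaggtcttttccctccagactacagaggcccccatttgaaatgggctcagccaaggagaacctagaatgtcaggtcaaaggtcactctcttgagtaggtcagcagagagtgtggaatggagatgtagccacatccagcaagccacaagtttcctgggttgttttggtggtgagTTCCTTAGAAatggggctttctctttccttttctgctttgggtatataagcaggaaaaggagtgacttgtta

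Ccl17 held the pattern at bases -154 to -145 and Apol7c at -72 to -63 from the start site, and the Ccl22 window held no match. The pattern reads the same on both strands and was found in 1923 of 32851 RefSeq promoter windows of this length (5.85%). Windows were matched for 5 of the 6 markers, and those of Fscn1 and Aldh1a2 held no match. A match describes letters only, and binding was not measured here.

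The surface markers of the sort were dim on their own probes. Itgax, which encodes CD11c, was detected on 3 of 4 LN arrays, with 5.19, 5.85, 6.47 and 5.56 on replicates 1 to 4. Its other probe was not detected on any LN array. The CD11b gene Itgam passed detection on 1 LN array, with 4.78, 4.53, 5.46 and 5.14, and on no spleen array. The Itgam values were near or below the dimmest detected signal, although the cells were sorted for CD11b protein. Whether this lay in the probe or in the level of the transcript was not tested. Itgax was dim, and it was detected on 3 of 4 spleen arrays too. Cd8a and Klrb1c, the gene of NK1.1, were not detected on any LN array. A probe below detection does not show that its gene is silent: Rhoa, Hspa5 and Pcna, which most cells use, were not detected on any LN array either.

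General dendritic cell genes were mostly present. Of 13 such genes with a probe, 10 were detected on all 4 LN arrays (76.9%), against 39.7% of all genes. The brightest were Cd74, the invariant chain of MHC class II (15.20), Cst3, which encodes the protease inhibitor cystatin C (15.03), Dpp4 (13.61), H2-Aa (12.84) and Ccr7 (12.33). Ccr7 had 12.88, 12.53, 11.92 and 11.998 on replicates 1 to 4, with both arrays of the second BeadChip below both of the first. Zbtb46, a transcription factor of conventional dendritic cells, averaged 9.42 ± 0.25 log2 units (SD over the 4 LN arrays, n = 4, as for every such value below). Flt3, the receptor on which dendritic cell development depends, was detected on 2 LN arrays, and Naaa was not detected on any LN array.

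Genes of the CD11b-type conventional subset (cDC2) were split. Of 18, 10 were detected on every LN array, with a median of 7.81 among them, below the 8.61 of all detected genes. Sirpa, a surface receptor of that subset, averaged 12.38 ± 0.22 and Esam averaged 12.31 ± 0.11. Irf4, a transcription factor that cDC2 need, had 9.17, 9.45, 10.35 and 9.32, highest on replicate 3. The lectin genes Clec4a1, Clec4a3, Mgl2 and Clec4a4 were detected on all 4 LN arrays, at means of 6.77 to 8.91, while Clec10a, Cd209a and Clec4a2 were not detected on any LN array. Of 13 genes of the cross-presenting subset (cDC1), 5 were detected on all arrays (38.5%), close to the share of all genes. Their median was 10.37, above that of the detected cDC2 genes. They included Itgae (11.24), Btla (10.37) and Ly75 (8.51). Batf3, a transcription factor that cDC1 need, averaged 11.84 ± 0.36, and Irf8 averaged 9.58 ± 0.10. Xcr1, Tlr3, Cd8a, Snx22, Gcsam and Naaa were not detected on any LN array, and Clec9a was detected on 2.

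Markers of most other cell types were rare. Of the genes with a probe, 0 of 9 platelet genes, 1 of 18 stromal and endothelial genes and 1 of 14 neutrophil genes were detected on all 4 LN arrays. The same held for 1 of 10 erythroid, 2 of 14 T cell, 2 of 14 B cell and 3 of 13 monocyte genes. The B cell genes Ms4a1 and Pax5, the neutrophil genes S100a8 and S100a9 and the monocyte genes Ccr2 and F13a1 were not detected on any LN array. Those detected on all 4 included Cd79b of the B cell list (7.98), Lcn2 of the neutrophil list (10.01) and Cd8b1 (8.58) and Thy1 (8.15) of the T cell list. The 3 detected monocyte genes were Lyz2 (10.27), Cd14 (7.60) and Csf1r (7.21). Cd3e, part of the T cell receptor complex, was detected on 2 arrays and Cd3d on 3. Macrophage genes reached 8 of 16 (50%), above the share of all genes, led by Spic (9.09) and Adgre1 (8.90), while Cd163, Siglec1 and Cd5l were not detected on any LN array. Plasmacytoid genes reached 9 of 14 (64.3%), led by Irf7 (11.35), which interferon also induces, and Tcf4 (11.30), and Siglech averaged 6.98 ± 0.40.

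NK cell genes reached 5 of 14 (35.7%), close to the share of all genes. Prf1, which encodes perforin, had 10.77, 11.51, 11.91 and 11.65 on LN replicates 1 to 4, the lowest on replicate 1, and its other probe was not detected on any LN array. Klrd1, which encodes CD94, had 10.84, 10.94, 11.08 and 10.75. Also detected on all 4 LN arrays were Klrk1 (8.71), Klre1 (5.95) and Ctsw (5.73). Members of the list not detected on any LN array included Ncr1, Klrb1c, Gzmb, Eomes and Nkg7. Lad1 was the sole detected gene of 10 Langerhans and epithelial genes, and Cd207, Epcam, Krt5 and Krt14 were not detected on any LN array. Over each list, intensities summed to 1005 to 1248 on the LN arrays for T cells, 633 to 1016 for B cells, 4394 to 6675 for NK cells, 962 to 2130 for neutrophils and 1503 to 2205 for monocytes. Whether such cells added to the levels given below was not tested.

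**Figure D2:**
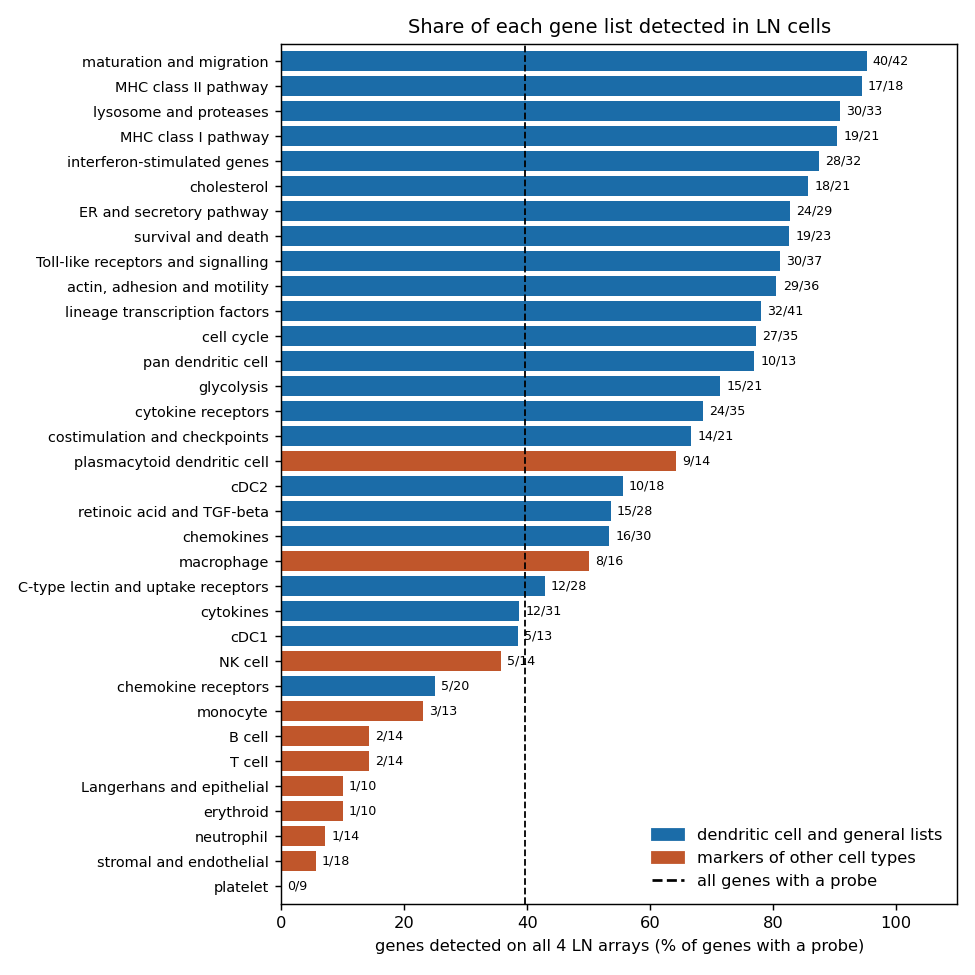
Share of the genes with a probe in each list that were detected on all 4 LN arrays (horizontal axis, percent), with the counts beside the bars; blue bars are dendritic cell and general lists and orange bars are marker lists of other cell types. The dashed line is the share of all genes (39.7%); maturation genes (40/42) are at the top and platelet genes (0/9) at the bottom.

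Levels of the 7562 detected genes ran from a mean of 5.44 to 15.69 log2 units, with quartiles at 7.23, 8.61 and 10.18. Only 68 genes reached 14 or more, 456 lay between 12 and 14, 1548 between 10 and 12 and 2561 between 8 and 10, and 2929 lay under 8. Probe intensity depends on how well each probe binds as well as on the transcript, so ranks order intensities, not copies of RNA. Where a gene had several detected probes (2628 genes), the brightest and dimmest differed by a median of 1.57 log2 units, with a 90th percentile of 4.14. For some bright genes named below the gap was wider: 6.82 for Id2, 6.68 for Gbp2, 6.66 for Irf1, 6.26 for Cd40, 6.12 for Il15 and 6.01 for Samsn1. Of the 4730 detected genes with several probes on the array, 3323 had some probe that was not detected on all 4 arrays.

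**Figure D3:**
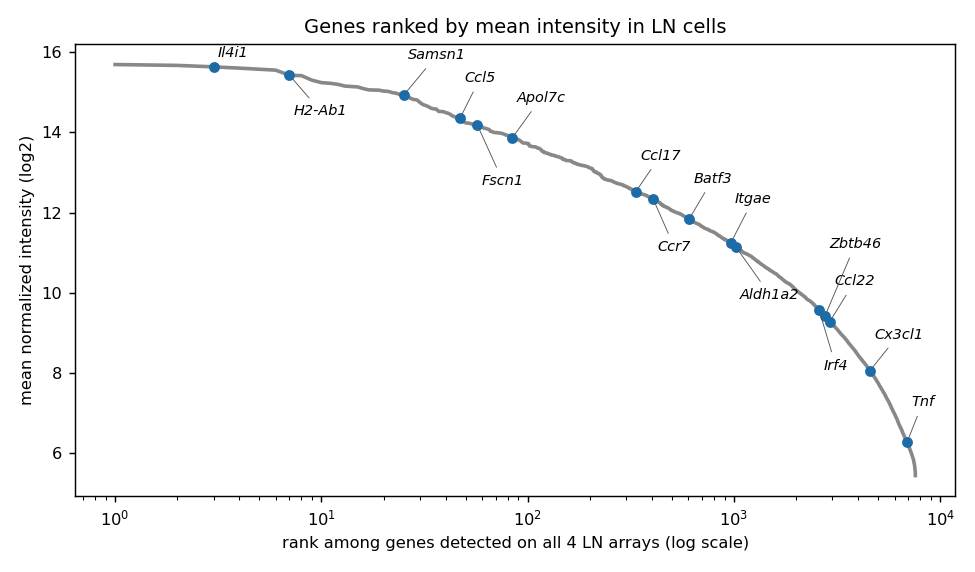
Mean normalized log2 intensity over the 4 LN arrays (vertical axis) of the 7562 detected genes, ordered by rank on a log axis (horizontal). Points name 16 genes of the text: Il4i1 at rank 3 and H2-Ab1 at rank 7 sit on the upper plateau, Ccl17 lies at rank 333 and Ccl22 at rank 2913.

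Translation and cytoskeleton genes shared the top of the ranking with genes of antigen presentation. The 30 brightest genes averaged 14.75 or more. Eef1a1, a translation elongation factor, ranked first with 15.69 ± 0.081, followed by Actb, which encodes beta actin (15.67 ± 0.11). Il4i1, a secreted oxidase that breaks down phenylalanine, took rank 3 with 15.53, 15.58, 15.71 and 15.71 on replicates 1 to 4. Its 4 arrays lay close together, at a level where quantile normalization limits the spread. Its bead intensities of 62255, 61231, 54143 and 45123 were near the array maxima of 64545, 66805, 55767 and 47095. Whether the signal was saturated was not tested. Fth1, the heavy chain of the iron store ferritin, followed with 15.60 ± 0.076.

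The MHC class II genes H2-Ab1 (15.43 ± 0.21), Cd74 (15.20 ± 0.31) and H2-Eb1 (15.06 ± 0.36) were among these 30, as was B2m, the light chain of MHC class I (15.09 ± 0.26). H2-Eb1 had 14.85, 14.68, 15.47 and 15.24, and Cst3 had 15.43, 15.26, 14.59 and 14.83. On both arrays of the second BeadChip H2-Eb1 was higher, and Cst3 lower, than on both arrays of the first. Cytip, which regulates adhesion of dendritic cells to T cells, averaged 15.13 ± 0.25, and the adaptor gene Samsn1 averaged 14.92 ± 0.29. Tmsb4x, which binds actin monomers, averaged 15.30 ± 0.33, and Zfp36l1, which promotes decay of AU-rich mRNAs, averaged 15.24 ± 0.11. The others were Prr33 (15.16), Iscu, an iron-sulphur cluster scaffold (14.98), Btg1 (14.85), the tubulin gene Tuba1b (14.82) and the metallothionein Mt1 (14.75). The other probes of Prr33 and Tmsb4x were not detected on any LN array. Each level thus rests on a probe that disagrees with its partner. Of these 30, B2m, Rpl23, Rpl37, Rps19 and Rps24 also had a probe not detected on any LN array.

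Ribosomal protein genes made up 12 of these 30 and 26 of the brightest 100. In all 51 were detected, with a median of 13.75, and 42 were in the brightest 25%. Many ribosomal genes have near-identical processed copies, so the probe may read more than the gene it names. Of the genes in the top 100 on each BeadChip's own pair of arrays, 83 were shared. Across genes, the Spearman correlation between the means of the second and first BeadChip was 0.977, which describes genes and not independent replicates.

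Maturation and migration genes were the most completely detected of the plotted lists, with 40 of 42 on all 4 LN arrays. The median of these 40 was 12.06, against 8.61 for all detected genes, and 26 were in the brightest 25%. The list was chosen with these data known and includes 4 of the 6 markers. After Il4i1 and Samsn1 came Anxa3 (14.39), the chemokine Ccl5 (14.36) and Birc2, an inhibitor of cell death (14.24). Cd83, a surface protein of mature dendritic cells, had 13.36, 13.26, 13.37 and 13.11, and the 4 arrays were close together. Cd200, which encodes a ligand that restrains myeloid cells, had 12.74, 12.45, 11.31 and 12.55, with replicate 3 alone more than 1 log2 unit below the others. Tmem150c and Serpinb9 were not detected on any LN array.

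Costimulatory and checkpoint genes were detected for 14 of 21. Cd274, which encodes PD-L1, had 13.76, 13.84, 14.07 and 14.14 on replicates 1 to 4 and ranked 77. Cd40, the receptor through which T cells license dendritic cells, averaged 13.12 ± 0.28, and the adhesion ligand Icam1 averaged 12.80 ± 0.27. The CD28 ligand Cd86 had 12.22, 12.48, 11.89 and 11.80, and its relative Cd80 had 10.45, 10.72, 9.45 and 10.35. Both were lowest on an array of the second BeadChip. Tnfsf4, Tnfsf18, Vtcn1 and Cd24a were not detected on any LN array.

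The MHC class II pathway had 17 of 18 genes detected, with a median of 10.24. After H2-Ab1, Cd74 and H2-Eb1 came Ifi30, a reductase that unfolds antigens (13.41), and H2-Aa (12.84). H2-Aa had 13.09, 13.27, 12.37 and 12.63, with both arrays of the second BeadChip below both of the first, the reverse of H2-Eb1. Rfx5 was not detected on any LN array. The MHC class I pathway had 19 of 21, with a median of 11.88 and 15 in the brightest 25%. B2m led, then Psme1, a proteasome activator (13.997), H2-D1 (13.99), H2-T23 (13.54) and the immunoproteasome subunit Psmb9 (13.04). H2-D1 is one of several closely related class I genes, whose probes may cross-hybridise. Canx and H2-T24 were not detected on any LN array.

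Lysosomal and protease genes were detected for 30 of 33, with a median of 11.71. Cst3, Laptm5 (14.52), Cstb (13.66), Lamp1 (13.64) and the cathepsin Ctsh (13.64) led. Ctse, which encodes cathepsin E, had 13.39, 12.51, 12.52 and 12.41, highest on replicate 1. Ctsd, Ctsl and Atp6v0d2 were not detected on any LN array. Among C-type lectins and uptake receptors, 12 of 28 were detected (42.9%), near the share of all genes. Fcer1g, the common gamma chain of Fc receptors, averaged 12.47 ± 0.19, followed by the inhibitory receptor Fcgr2b (9.80) and Clec2i (9.56). Cd207, Clec4d, Clec4e, Clec12a, Cd36 and Msr1 were not detected on any LN array.

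Of 30 chemokine genes, 16 were detected on every LN array. Ccl5 had 14.92, 14.63, 13.86 and 14.02 on replicates 1 to 4, lower on both arrays of the second BeadChip than on both of the first. Cxcl16, the membrane-bound ligand of CXCR6, averaged 13.57 ± 0.18. The interferon-induced CXCR3 ligand Cxcl9 averaged 10.76 ± 0.16, and the neutrophil attractant Cxcl1 had 10.97, 10.73, 9.34 and 10.33, lowest on replicate 3. Ccl1, Ccl2, Ccl6, Ccl20, Ccl24, Cxcl3, Cxcl11, Cxcl14 and Xcl1 were not detected on any LN array. Of 20 chemokine receptors, 5 were detected (25%), below the share of all genes. After Ccr7 these were Ccrl2 (9.81 ± 0.64), Cxcr4 (9.81 ± 0.50), Ccr6 (9.51 ± 0.46) and Cxcr5 (8.07). Ccr4, the receptor for CCL17 and CCL22, was not detected on any LN array, nor were Ccr1, Ccr2, Ccr3, Ccr8, Ccr9, Ccr10, Cxcr2, Cxcr3 and Cxcr6.

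Cytokine genes were detected for 12 of 31 (38.7%), a share close to that of all genes. Il1b had 12.64, 12.995, 12.89 and 12.74 on replicates 1 to 4, and Il15, which sustains NK and memory CD8 T cells, had 12.36, 12.45, 12.68 and 12.45. Both were nearly flat over the arrays. The interleukin-1 antagonist Il1rn averaged 10.83 ± 0.19, Ebi3, a subunit shared by IL-27 and IL-35, averaged 10.75 ± 0.37, and Osm averaged 9.40 ± 0.43. Il10, Il12a, Il23a, Ifnb1, Ifng, Csf1 and Csf2 were among the genes not detected on any LN array.

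Receptors for cytokines were detected for 24 of 35. Il7r, which also forms the receptor for TSLP, had 12.98, 13.02, 12.36 and 12.19, with the second BeadChip's arrays below the first's. Il10ra averaged 11.96 ± 0.15, Il15ra 11.26 ± 0.20, the TNF receptor Tnfrsf1b 11.02 ± 0.30 and Csf2ra, the GM-CSF receptor alpha chain, 10.84 ± 0.27. The shared beta chain Csf2rb had 10.19, 8.25, 10.10 and 9.93, with replicate 2 far below the other three. Csf2rb2, its close relative in the mouse, had 8.91, 9.46, 9.95 and 9.35, and there replicate 1 was the lowest. Ifnar1, Il2rb, Il1r1, Il12rb1, Il17ra, Il18r1, Crlf2 and Lifr were not detected on any LN array.

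Toll-like receptor and NF-kappaB genes were detected for 30 of 37. The NF-kappaB members and feedback genes Relb (12.73), Nfkbia (12.54), Rela (12.12) and Tnfaip3 (12.06) led with the kinase adaptor Tab2 (12.30). Of the receptors themselves, Tlr13, which in the mouse senses bacterial ribosomal RNA, averaged 10.68 ± 0.13, a gene singled out after its value was seen. Tlr4, the LPS receptor, was not detected on any LN array, nor were Tlr3, Tlr9 and Tlr12. Its partner gene Ly96 was detected (9.77).

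Interferon-stimulated genes were detected for 28 of 32, with a median of 10.68 and 16 in the brightest 25%. Gbp2, a guanylate-binding protein, averaged 14.45 ± 0.28, followed by Ifitm3 (13.81), Irgm1 (13.11), Usp18 (12.72) and Ifit3 (12.69). Ifit3 had 12.90, 12.79, 12.91 and 12.17 on replicates 1 to 4, with replicate 4 below the others. Ifit1 and Iigp1 were not detected on any LN array.

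Lineage transcription factors were detected for 32 of 41. Irf1 averaged 14.11 ± 0.16, Stat4 had 13.10, 12.94, 13.64 and 14.12, Id2 had 13.72, 13.75, 12.95 and 12.76, and Stat3 averaged 13.13 ± 0.30. Stat4 was higher on both arrays of the second BeadChip, and Id2 was lower there. Junb, an AP-1 subunit, averaged 12.84 ± 0.25. Notch2, Runx3, Myc, Prdm1, Ahr, Stat5b, Cebpa and Id3 were not detected on any LN array.

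Retinoic acid and TGF-beta genes were detected for 15 of 28. Besides Aldh1a2, they included the retinoid receptor Rxrb (11.19), the SMAD repressor Skil (11.03) and the TGF-beta receptors Tgfbr1 (9.42) and Tgfbr2 (8.59). Aldh1a1, Rdh10, Rara, Rxra, Smad7 and the retinoic acid-degrading enzymes Cyp26a1 and Cyp26b1 were not detected on any LN array. Actin, adhesion and motility genes were detected for 29 of 36, with a median of 11.58. Actb, Tmsb4x, the actin nucleator subunit Arpc5 (14.59), Fscn1 and Marcks (14.10) led.

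Survival and death genes were detected for 19 of 23, led by Birc2, the BCL2 relatives Bcl2a1d (13.52), Bcl2a1b (13.18) and Mcl1 (13.15), and Casp1, which processes interleukin-1 beta (12.75). Bcl2a1d and Bcl2a1b are near-identical copies, so their separate levels are uncertain. Bcl2 and Xiap were not detected on any LN array. Cell cycle genes were detected for 27 of 35, with a median of 7.80, below the 8.61 of all detected genes. Ccnd2, a G1 cyclin, averaged 13.92 ± 0.18 and the cell cycle inhibitor Cdkn1a averaged 11.62 ± 0.36, while Ccna2, Ccnb2, Bub1 and Pcna were not detected on any LN array.

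Secretory pathway genes were detected for 24 of 29, led by Ssr4 (12.70) and Sec61g (12.33), and Hspa5, as given above, was below detection. Glycolysis genes were detected for 15 of 21, led by Gapdh (12.73) and Pkm (11.87). Cholesterol synthesis and transport genes were detected for 18 of 21, with a median of 8.07, led by Cyp51 (10.75), Fdps (10.59) and Pmvk (10.54). The lactate transporters Slc16a1 and Slc16a3 and the cholesterol exporter Abca1 were not detected on any LN array.

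The 4 LN arrays agreed closely for most genes. The SD over the arrays had a median of 0.25 log2 units, with quartiles at 0.17 and 0.36, and 6936 of 7562 genes (91.7%) had an SD under 0.5. The median SD was 0.29 for genes under 8 log2 units, 0.25 from 8 to 10, 0.22 from 10 to 12, 0.18 from 12 to 14 and 0.20 at 14 or more. Quantile normalization gives every array the same set of values, which limits the spread at the top. Ribosomal genes had a median SD of 0.18.

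**Figure D4:**
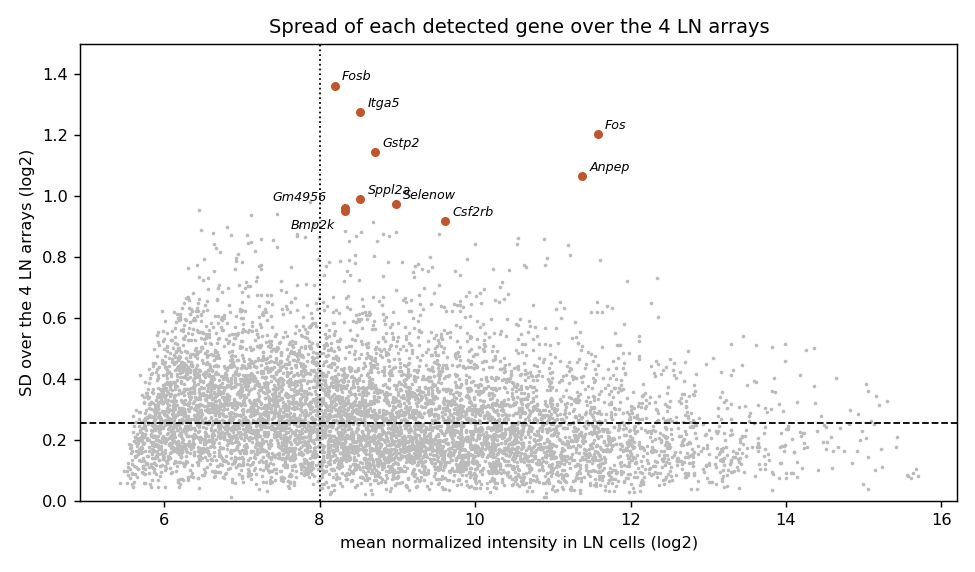
SD over the 4 LN arrays (vertical axis, log2 units) against the mean normalized log2 intensity (horizontal axis) for the 7562 detected genes. The dashed line is the median SD (0.25), the dotted line the level of 8 above which genes were named, and orange points are the 10 most variable genes above it, led by Fosb with 1.36.

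Among the 4633 genes with a mean of at least 8, the most stable was Pip4k2c, a lipid kinase gene (SD 0.011), followed by Dctn3, a dynactin subunit (SD 0.012). Pip4k2c had 10.90, 10.88, 10.89 and 10.87 on replicates 1 to 4. Trak1, Ints7, C2cd3, Tmem160, Zcchc8, Bri3, Nipa2 and Nhp2 completed the 10 most stable, with SDs up to 0.028. These SDs describe the 4 arrays only.

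The most variable gene at this level was Fosb, an immediate early transcription factor, with 6.60 and 7.57 on the second BeadChip's arrays (replicates 3 and 4), against 9.02 and 9.59 on the first's. Fos, its AP-1 relative, had 10.04 and 11.30 on the second BeadChip, against 12.16 and 12.82 on the first. Replicate 2 was highest and replicate 3 lowest for both. The same order held for Egr1, with 8.40 and 9.35 on the second BeadChip against 9.59 and 10.34 on the first, and for the phosphatase gene Dusp1, with 13.69 and 14.03 against 14.53 and 14.79. Klf2 shared it, with 7.77 and 8.47 on the second BeadChip against 8.86 and 9.70 on the first. Egr1, Dusp1 and Klf2 were singled out after their values were seen. Bmp2k and Sppl2a, a protease that cleaves the remnant of Cd74, were also lower on both arrays of the second BeadChip. For Bmp2k most of the spread came from replicate 2, as given below.

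Other variable genes had differing patterns over the arrays. Itga5, which encodes an integrin chain that binds fibronectin, had 9.96, 6.85, 8.60 and 8.67 on replicates 1 to 4, highest on replicate 1 and lowest on replicate 2. Without replicate 2 its SD was 0.77, against 1.28 with all 4. Anpep, which encodes the aminopeptidase CD13, had 12.49, 9.93, 11.58 and 11.54, with an SD of 0.54 without replicate 2 and 1.07 with it. Csf2rb followed replicate 2 most closely, with an SD of 0.13 without it and 0.92 with it. The SD of Bmp2k was 0.18 without replicate 2 and 0.95 with it, and that of Fos was 0.77 without replicate 3 and 1.20 with it. Selenow, a selenoprotein gene, had 10.19, 7.81, 8.88 and 9.03, and the predicted gene Gm4956 had 8.38, 8.53, 9.35 and 7.03, with an SD of 0.52 without replicate 4 and 0.96 with it. Gstp2, a glutathione transferase with a near-identical copy in the mouse, went the other way, with 9.41 and 9.88 on the second BeadChip against 8.15 and 7.39 on the first.

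Of the 100 most variable genes at this level, the array farthest from the other three was replicate 2 for 47, replicate 3 for 31, replicate 1 for 11 and replicate 4 for 11. Over all detected genes these shares were 30.1% for replicate 2, 27.8% for replicate 3, 18.7% for replicate 1 and 23.4% for replicate 4. Ido1, which degrades tryptophan, had 10.59, 10.40, 12.11 and 10.60, and Tm4sf5 had 9.89, 10.02, 11.79 and 10.49. Replicate 3 was the highest by more than 1 log2 unit for both, which were singled out after their values were seen.

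**Figure D5:**
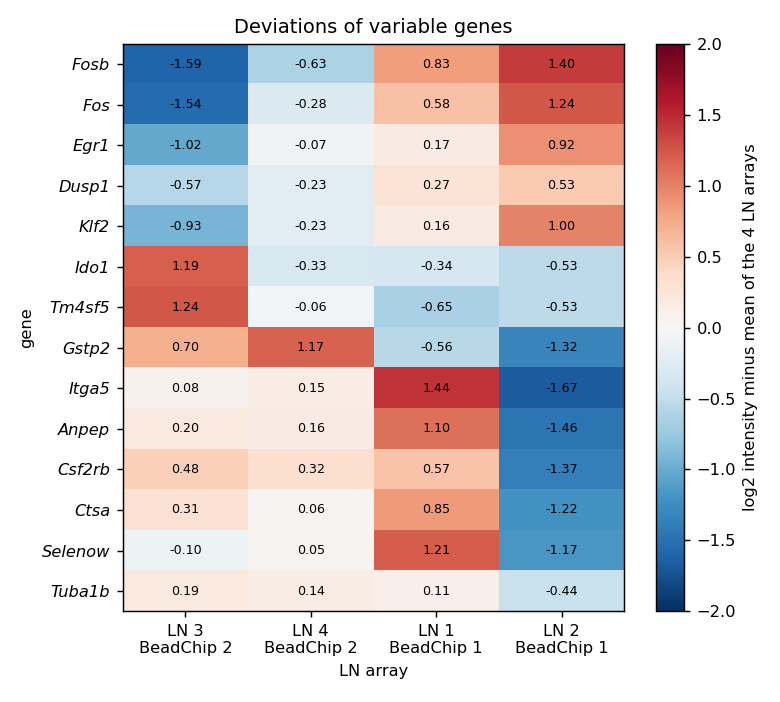
Log2 intensity minus the mean of the 4 LN arrays (colour and printed value) for 14 variable genes (rows) on each LN array (columns, with the second BeadChip on the left and the first on the right). Fosb to Klf2 are below their mean on the second BeadChip and above it on the first, and Itga5 to Tuba1b are lowest on LN replicate 2.

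The BeadChip was tested within the LN cells, with 2 arrays on each. In a limma model over the 7562 detected genes, 0 were called at an adjusted p under 0.05 (0%), and the smallest adjusted p was 0.0631. At an unadjusted p under 0.05 there were 1523 genes (20.1%), of which 698 were higher and 825 lower on the second BeadChip. The arrays of the BeadChips did not overlap for 3909 genes (51.7%), and 129 genes differed by 1 log2 unit or more. Fosb was lower by 2.22 log2 units on the second BeadChip and Gstp2 higher by 1.88, and both shared the smallest adjusted p of 0.0631. With any 1 LN array left out the count of called genes was 214 without replicate 1, 18 without replicate 2, 61 without replicate 3 and 120 without replicate 4. In each of those fits a single array stood for its BeadChip and was assumed to vary like the others. It was 192 with arrays scaled to the same median in place of quantile normalization. Whether replicates on a BeadChip were also sorted together was not given in the sources used here, so hybridisation and sort cannot be told apart.

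The shift between BeadChips was set against that in the splenic cells in a limma interaction over all 8 arrays. Of 8252 genes, 0 were called at an adjusted p under 0.05 (0%), with a smallest adjusted p of 0.969, and 195 had an unadjusted p under 0.05 (2.36%). Without spleen replicate 3 genes were called, but replicate 4, which correlated least with the rest, then stood alone for the spleen on the second BeadChip. A difference between the groups in how they varied over BeadChips was thus not detected with all arrays, and the number of arrays limits how small a difference could be found.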

How the data were processed

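Groups and replicate numbers were taken from titles and source names, and BeadChips from the slide part of the sample descriptions. RNA was extracted with TRIzol and amplified into biotin-labelled cRNA, per the labels' protocols. The deposited non-normalized table holds 2 columns for every array, per the file headers: linear bead intensity and detection p-value. The steps of the detection p-values imply 936 negative controls. The authors' deposited processed values are on a log2 scale and served as an alternative. The submitters' processing notes name Partek, whose role is not given in the sources used here.

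Intensities were background-corrected with the implied negative controls, quantile-normalized over the 8 arrays and converted to log2 after adding 16, by the neqc function of limma 3.58.1 under R 4.3.3 with jsonlite 2.0.0 for the labels. Figures and promoters used Python 3.11.15, pandas 2.3.3 and matplotlib 3.10.9. One blank line was left out. A single symbol was given to 34885 probes and several to 18, while the gene table did not list 10378, and 1809 of these unnamed or ambiguous probes were detected on all 4 LN arrays. Entrez identifiers matched 34807 probes to the current gene table and changed 0 symbols. The brightest probe stood for each gene. For the comparison with spleen, probes detected on at least 4 of 8 arrays were kept.

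Models used lmFit and eBayes with an intensity trend, with two-sided tests and Benjamini-Hochberg adjustment over all genes of the fit, and were tested on simulated data. A replicate block was an alternative: the labels share replicate numbers, the series text has both organs taken in parallel from the same animals, and same-numbered arrays deviated together (correlations of 0.308, 0.548, 0.311 and 0.547). Of the 4 differently numbered pairs within a BeadChip, 3 did so as well (0.373, 0.578 and 0.378, for LN 1, 2 and 3). Each lay above the same-numbered pair of its LN array, while LN 4 with spleen 3 was at -0.143. Most deviations were thus shared within a BeadChip, and a part that followed the number was not shown. Genes were named by a rule: the markers, the gate genes, the 30 brightest, the 10 most and 10 least variable with a mean of at least 8, and in each list up to 5 brightest members and members not detected on any LN array. Other list members named with values were chosen after their values were seen. Members, lists and markers were chosen with earlier results of these data known. Promoter windows came from RefSeq.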

Additional observations from a re-analysis of the deposited data

Results flagged for a closer look

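Each gene named by the rule above and detected in LN cells was screened for an array that stood far from the rest of its group. The measure was the gap to the nearest array as a share of the whole range (Dixon's test). Genes named after their values were seen, such as Ido1, Ctse, Cd83, Cd200 and Egr1, were not screened. Chance flags about 1 in 20 groups. Of the 176 genes screened, 5 passed the limit over the LN arrays, and over all 7562 detected genes 307 did (4.06%).

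On LN replicate 2, Casp1 was at 12.53 against 12.80 to 12.83 on the others (share 0.901), Csf2rb at 8.25 against 9.93 to 10.19 (share 0.869) and Tuba1b at 14.38 against 14.93 to 15.01 (share 0.864). On LN replicate 4, Ifit3 was at 12.17 against 12.79 to 12.91 (share 0.832) and Pmvk at 10.92 against 10.37 to 10.47 (share 0.831). Among the markers on the spleen arrays, Itgae was at 5.47 on replicate 4 against 6.96 to 7.13 on the others (share 0.894), and it was not detected on that array.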

How the results depend on the processing

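Where a setting could bear on a result, it was recomputed with other background steps, median scaling, the authors' processed values, a looser detection limit, normalization within LN arrays and each array left out. One alternative, the BeadChip test with the spread of all 8 arrays, was chosen after seeing the data and also called 0 genes. The median SD was 0.206 with no background correction, 0.207 with normexp, 0.204 with the authors' values, 0.307 with median scaling and 0.226 to 0.253 with an LN array left out. The detected genes numbered 7633 to 7721 over the arrays left out, 8263 at a detection p under 0.05 and 8015 on at least 3 arrays. Of the brightest 100 genes, 95 or more were shared under every alternative run. Eef1a1 and Actb exchanged ranks without LN replicate 3 or 4.

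The BeadChip test called 192 genes with median scaling and 18 to 214 with an LN array left out, and 0 under the other alternatives run. The interaction called 0 to 1563 genes with an array left out, the highest without spleen replicate 3. LN over spleen called 916 to 2046 genes with an array left out, 378 on the second BeadChip alone, 1888 on the first and 1745 with a replicate block. The block changed no marker's call. Requiring detection on all 8 arrays left 985 called genes and left Ccl22 and Itgae untested. Fscn1 was the sole marker to lose its call, also with median scaling (1.18, adjusted p = 0.127) and on the second BeadChip alone (0.93, adjusted p = 0.199), and no result reversed. The causes were not tested. Signal over background limits the genes under 8 log2 units, where the spread was widest.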
